A study of Mus musculus with 4 samples.

Results

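The stria vascularis is the strip of epithelium in the cochlear lateral wall that pumps potassium into the endolymph and generates the endocochlear potential, and it is built from marginal, intermediate and basal cells. The study dissected this tissue from CBA/J mice at P30 (postnatal day 30) and captured it on the 10x Chromium platform in 4 libraries. In 3 of these the tissue was digested with trypsin into whole cells, and in 1 it was lysed in a mild detergent (Nonidet P40) to release nuclei. The labels give no engineered allele and no treatment, each suspension pooled several mice, and no barcode can be traced to an animal. The 3 captures of cells held 392, 1358 and 1580 barcodes with 2811309, 8113494 and 8340882 UMIs (unique molecular identifiers, each counting 1 captured RNA molecule), and the nucleus library held 11057 barcodes with 22332501 UMIs.

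The barcodes described here belong to the nucleus library but hardly hold the RNA that marks a nucleus. They were chosen by measured values, as barcodes with at least 200 genes detected, Malat1 under 1.5% of UMIs, the 4 hemoglobin genes Hbb-bs, Hbb-bt, Hba-a1 and Hba-a2 together under 5%, and the 4 neutrophil granule genes Ngp, Camp, Elane and Mpo together under 0.5%. This rule took 3838 of the 11057 barcodes of the library, or 35.9% of its 10701 barcodes with at least 200 genes (exact binomial 95% interval 35.0 to 36.8), among 14387 barcodes in all 4 libraries. They are called low-Malat1 barcodes below, and are set against the 6151 barcodes that met the same limits on genes, hemoglobin and granule genes but held Malat1 at 1.5% or more, called the other barcodes. With 1 nucleus library there was no replicate of this comparison, so it has no test. Intervals are exact 95% intervals that cover counting error only.

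Malat1 is a long noncoding RNA that stays in nuclear speckles, so in a nucleus it is usually among the most abundant transcripts. RNA encoded by the mitochondrial genome is made and kept inside mitochondria, which lie in the cytoplasm, and messenger RNA of ribosomal proteins, ferritin and the respiratory chain is spliced, exported and held there. Unspliced RNA of long genes, by contrast, is found almost only in nuclei. Among the cells of this tissue, marginal cells face the endolymph and secrete potassium through Kcnq1 and Kcne1, intermediate cells are pigment cells that carry the potassium channel Kcnj10, and basal cells seal the layer with Cldn11 tight junctions.

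In the values that the rule used, the low-Malat1 barcodes had a median Malat1 share of 0.366% of UMIs, against 15.6% in the other barcodes, and 20 of the 3838 held no Malat1 UMI. Of 4368 barcodes with at least 200 genes and Malat1 under the limit, 492 were left out for hemoglobin and another 38 for granule genes. Few barcodes lay near the limit. The 52 barcodes with Malat1 from 1.25% to 1.5% had a median mitochondrial share of 29.5%, and the 58 just outside, from 1.5% to 1.75%, had 29.6%. Total depth was alike, with a median of 1541 UMIs in the low-Malat1 and 1480 in the other barcodes. Outside mitochondrial genes the depth differed, with medians of 801 and 1395 UMIs.

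Mitochondrial RNA was the largest single part of a typical low-Malat1 barcode. The 13 mitochondrial protein genes made up a median of 48.2% of its UMIs (25th to 75th percentile, 38.0 to 57.5%), against 2.05% (1.05 to 8.67%) in the other barcodes. Together with the ribosomal RNAs mt-Rnr1 and mt-Rnr2 the pooled share was 45.2% of 6755319 UMIs against 9.67% of 11225393 UMIs. In UMIs, a median of 749 mitochondrial molecules per low-Malat1 barcode stood against 30 per other barcode. The shares spread from 0.320% to 78.9%, with 3323 barcodes (86.6%) at 30% or more and 172 under 5%. The 2 classes overlapped, since 358 of the other barcodes (5.82%) also reached 30%.

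Among the other barcodes the mitochondrial share fell step by step as Malat1 rose, while among the low-Malat1 barcodes it changed little as long as Malat1 stayed under 1%. It was 47.1% in the 978 barcodes with Malat1 under 0.25% and 48.5% in the 251 between 0.75% and 1%, and 37.9% in the 93 from 1% to 1.25%. It was 21.6% in 168 barcodes at 2% to 3%, 13.5% in 518 at 5% to 7.5% and 1.05% in the 900 at 30% or more. Both shares have the same UMI total as denominator, so part of this relation is arithmetic.

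**Figure D1:**
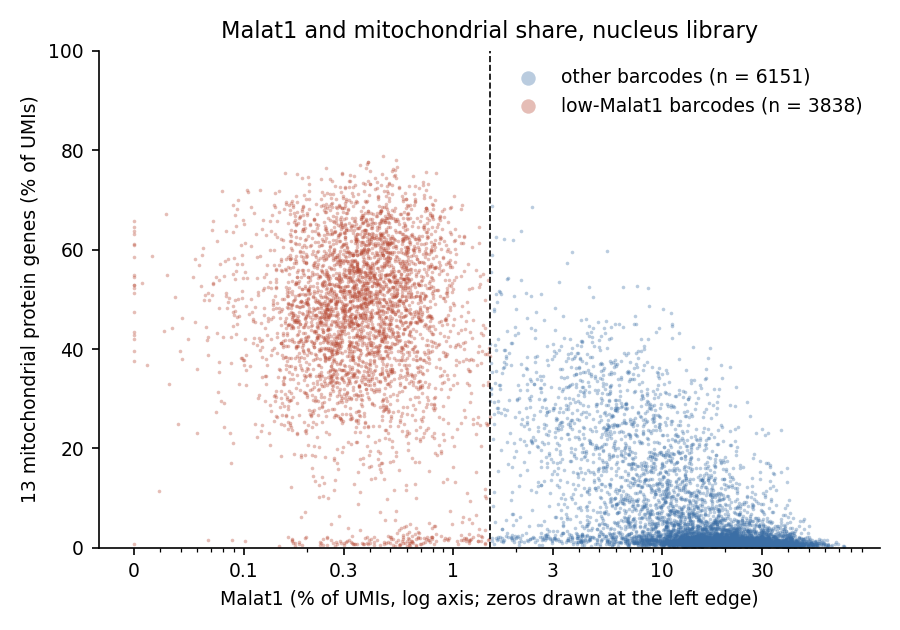
Each point is 1 barcode of the nucleus library, with Malat1 (percent of UMIs, log axis) against the 13 mitochondrial protein genes (percent of UMIs), and the dashed line marks the limit of 1.5%. The 3838 low-Malat1 barcodes form a cloud around 48.2% mitochondrial UMIs with a thin row near 0, and most of the 6151 other barcodes lie under 10%.

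The same rule applied to the whole cells also split each capture. It took 241 of 378, 736 of 1329 and 825 of 1481 barcodes with at least 200 genes, a share of 58.3% ± 4.75 (SD, n = 3 captures). Their median shares of the 13 mitochondrial protein genes were 46.7%, 53.5% and 59.4%, and the other barcodes of the cells held 21.9%, 25.5% and 30.1%. These shares are not comparable with those of the nuclei, since 6 of the 13 genes were counted differently in the 2 kinds of library, as given below. Of the barcode sequences of the low-Malat1 set, 3, 8 and 10 also occurred in the captures of cells, where 1, 4 and 3 of them were low in Malat1 too.

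**Figure D2:**
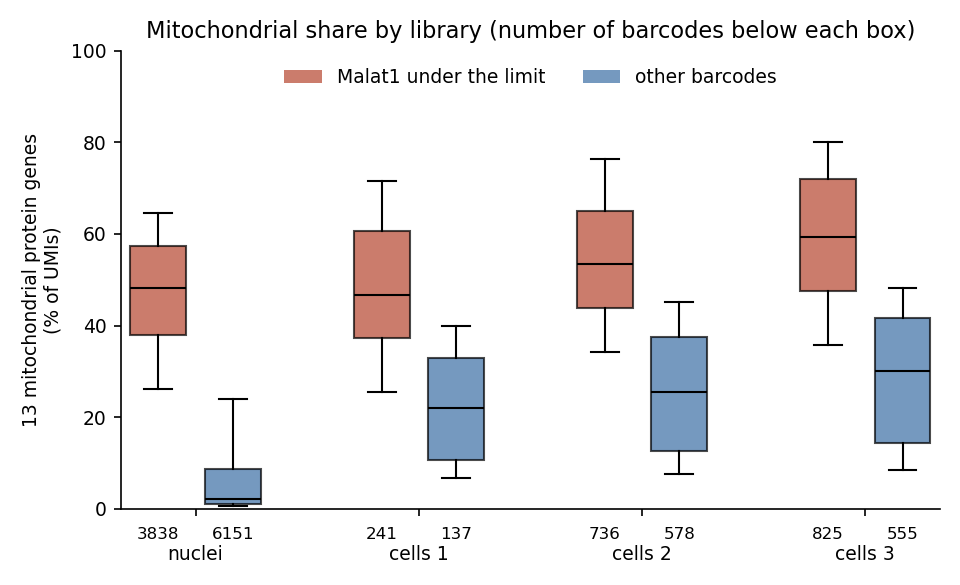
Share of UMIs from the 13 mitochondrial protein genes (percent) in the nucleus library and the 3 captures of cells, for barcodes with Malat1 under the limit and for other barcodes; boxes span the 25th to 75th percentile, the line is the median and whiskers reach the 10th and 90th percentile. Within each library the low-Malat1 median lies above that of the other barcodes (48.2% against 2.05% in the nuclei), and heights are not comparable between nuclei and cells because 6 of the 13 genes were counted differently.

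All 13 mitochondrial protein genes and both ribosomal RNAs took a larger share of UMIs in the low-Malat1 than in the other barcodes, by 3.01-fold (mt-Atp8) to 5.01-fold (mt-Co2) on pooled UMIs. The most abundant was mt-Nd1, a subunit of complex I, with 15.8% of all UMIs against 3.37%. Cytochrome b (mt-Cytb) followed with 12.8% against 2.72%, and mt-Nd4, also of complex I, with 7.98% against 1.68%. The make-up within the mitochondrial RNA was nearly the same in both classes, since mt-Nd1 made 36.3% of it in each.

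The make-up differed between the nucleus library and the cells, however. The complex IV subunit mt-Co1 was counted 0.0342 times for each mt-Nd1 UMI in the low-Malat1 barcodes and 0.0354 times in the other barcodes, but 1.33, 1.35 and 1.28 times in the low-Malat1 barcodes of the 3 captures of cells. The genes mt-Co1, mt-Co2, mt-Co3, mt-Atp6, mt-Nd3 and mt-Nd4l together made 7.63% of the mitochondrial UMIs in the low-Malat1 barcodes and 66.6%, 68.1% and 67.4% in those of the cells. The gene list of the nucleus library has 48816 entries and includes pseudogenes, among them stretches of the mitochondrial genome copied into chromosomes, whereas that of the cells has 27998 entries. In the longer list, between 95.2% (mt-Co1) and 99.8% (mt-Co3) of the 64-base windows in the transcript ends of these genes also occurred in another listed gene, and in the shorter list 0.0%. The end of mt-Co1 is shown because it carries this ambiguity. Its last 120 bases, read from the GENCODE vM21 transcripts (GRCm38, the assembly also called mm10), are the same in the unprocessed pseudogene Gm29216 on chromosome 1, with 0 differing bases.
mt-Co1, chrM:6753-6872, plus strand, and Gm29216, chr1:24615706-24615825, minus strand: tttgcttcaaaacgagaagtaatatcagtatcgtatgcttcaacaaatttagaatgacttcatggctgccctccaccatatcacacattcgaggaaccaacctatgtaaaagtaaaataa

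Counts of those 6 genes in the nucleus library are therefore uncertain, and its mitochondrial shares may be too low. With the 6 genes taken out of both the sum and the total, the 7 remaining genes held a median of 46.3% in the low-Malat1 and 1.89% in the other barcodes. In the cells these 7 genes held 22.6%, 27.5% and 32.8% in the low-Malat1 and 8.67%, 10.3% and 12.2% in the other barcodes. On these genes the low-Malat1 barcodes of the nuclei therefore lay above every capture of cells, and the other barcodes of the nuclei below. Gm28438, an unprocessed pseudogene of which 98.9% of the end windows are shared with mt-Nd3, was chosen after its values were seen. It was counted 15498 times in the low-Malat1 barcodes, against 907 UMIs on mt-Nd3 itself.

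For all remaining genes, levels were expressed per 1000000 UMIs (CPM) outside mitochondrial genes and the genes of the rule, which left 3636562 UMIs in the low-Malat1 and 8303910 in the other barcodes. Of 10852 genes with at least 100 UMIs, 1412 (13%) were at least 2-fold higher in the low-Malat1 barcodes and 4324 (39.8%) at least 2-fold lower. The median gene had a log2 ratio of -0.59, and every ratio below is to be read against it. The split depended on the scaling, because 24.6% of the genes past 2-fold were higher here, 10.2% when CPM was taken over all UMIs (median -1.05) and 39.7% with median-ratio scaling (median -0.20).

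RNAs that stay in the nucleus were low in these barcodes beyond Malat1 itself. Of a list of 15 nuclear long noncoding RNAs, 9 had at least 100 UMIs and 9 of 9 were at least 2-fold lower, with a median log2 ratio of -3.28 against -0.59 over all genes. Together they made 0.0182% of UMIs, or 338 CPM, against 0.257% of UMIs, or 3470 CPM, in the other barcodes. Neat1, the scaffold of paraspeckles, was at 217 CPM (interval 202 to 233) against 1606 (1579 to 1634), a log2 ratio of -2.89. It was found in 17.1% of the low-Malat1 and 75.6% of the other barcodes.

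The imprinted antisense RNA Kcnq1ot1 was at 52.3 CPM against 1323 CPM, a log2 ratio of -4.66, and it lies within Kcnq1, so that reads of both cannot be told apart where strand was not used. Firre, which anchors chromatin in the nucleus, was at 14.3 against 159 CPM, Pvt1 at 14.3 against 138 CPM and Airn, an imprinted antisense RNA, at 10.4 against 114 CPM. Airn overlaps Igf2r and is uncertain for the same reason. In the cells Xist took part of the list, at 140, 176 and 421 CPM in their low-Malat1 barcodes, and Firre, Rian and Snhg14 are not among their listed genes. Over the 11 genes in both gene lists without Xist, the sum was 313 CPM in the low-Malat1 and 3281 CPM in the other barcodes of the nuclei. In the cells the same 11 genes were at 611, 367 and 315 CPM in the low-Malat1 and at 1339, 1317 and 1185 CPM in the other barcodes, so that the low-Malat1 barcodes of the nuclei lay beside the lowest of the captures. Xist, Tsix, Miat and Mirg had 0 UMIs in the low-Malat1 barcodes, with an upper interval limit of 1.01 CPM each, and Xist had 16 UMIs in the other barcodes.

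Genes were also lower the longer they are on the genome. Gene spans came from GENCODE vM21, which matched 48349 of the 48816 listed identifiers. The 10032 protein-coding genes were split into 4 groups of equal size by span. In the shortest group (0.374 to 12.8 kb) the median log2 ratio was 0.33, and 27.6% were at least 2-fold higher. In the longest group (70.2 to 4435 kb) it was -1.61, and 69.2% were at least 2-fold lower. The groups between them had medians of -0.22 and -0.75. The longest group gave 14.7% of the UMIs in the low-Malat1 barcodes and 36.9% in the other barcodes, and the shortest 43.7% against 22.5%.

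**Figure D3:**
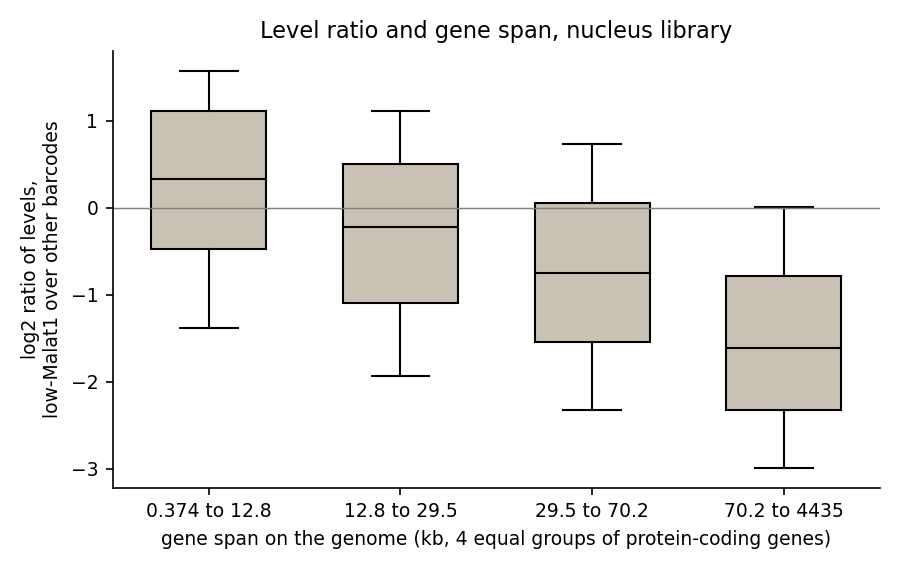
Log2 ratio of the level in low-Malat1 over other barcodes of the nucleus library for protein-coding genes, in 4 groups by genomic span (kb, 2508 genes each); boxes span the 25th to 75th percentile of genes, the line is the median and whiskers reach the 10th and 90th percentile. The median goes from 0.33 in the shortest group to -1.61 in the longest.

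The 10 genes that were lowest relative to the other barcodes were of very different lengths. Cacnb2, a calcium channel subunit whose gene spans 384.8 kb (chr2:14603088-14987908), was at 163 CPM against 4243 CPM, a log2 ratio of -4.70 (-4.82 to -4.59). The cadherin Cdh18, over 925.4 kb, was at 135 against 3508 CPM, and the F-box gene Fbxl7, over 355.1 kb, at 36.6 against 1218 CPM. All 3 were at 31.4 CPM or less in every class of the captured cells. The study's methods do not say whether reads in introns were counted, or counted alike in nuclei and cells. The part of this in the gap to the cells was not tested.

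The lowest ratio was that of Klhl40, a kelch protein known from skeletal muscle whose gene spans 6.21 kb, at 1.65 against 140 CPM (log2 -6.41, from 6 UMIs against 1165). The meiotic chromosome protein Sycp3, over 13.7 kb, was at 10.4 against 352 CPM and Ccnyl1, a cyclin-like gene over 35.2 kb, at 12.6 against 336 CPM. The remaining genes of this group were Rex2, Wdr17, Ifnk and Chsy3, with log2 ratios from -5.57 to -4.71, of which Ifnk spans 1.95 kb. Rex2 is uncertain, since 83.9% of its end windows occur in other listed genes such as Zfp600.

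At the other end stood the 10 genes with the highest ratios among genes at 100 CPM or more whose names are not only identifiers. Fth1, the ferritin heavy chain that stores iron, was the most abundant of them, at 25080 CPM (interval 24910 to 25240) against 5714 CPM (5663 to 5765), a log2 ratio of 2.13. It was detected in 99.9% of the low-Malat1 barcodes, and the low-Malat1 barcodes of the cells held 45180, 34580 and 39210 CPM.

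Polr2m, a protein bound to RNA polymerase II, was at 791 against 168 CPM and found in 47.6% against 17.0% of barcodes. Ghitm, a protein of the inner mitochondrial membrane, was at 704 against 152 CPM and Dynll2, a dynein light chain, at 1241 against 276 CPM. Nfe2l1, a transcription factor held at the endoplasmic reticulum, was at 474 against 105 CPM, Calm3, a calmodulin gene, at 397 against 89.96 CPM, Pink1, a kinase of damaged mitochondria, at 365 against 84.3 CPM, and Eid1, a nuclear co-regulator, at 290 against 61.5 CPM. Each of these 7 was higher in the low-Malat1 than in the other barcodes in all 3 captures of cells as well.

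The final genes of the 10, Ttr and Dut, rested on few barcodes. Ttr, the thyroid hormone carrier made by choroid plexus and liver, had 4368 UMIs, of which 4234 (96.9%) lay in 7 barcodes with 230 to 1193 UMIs each, and the 3 captures of cells held 4, 13 and 8 Ttr UMIs in all. It was at 1201 CPM against 67.0 CPM in the other barcodes, of whose 556 UMIs 1 barcode held 401. Without those 7 and that 1 barcode it was at 36.9 against 18.7 CPM. Of the UMIs of Dut, which removes dUTP during DNA synthesis, 38.5% lay in 10 barcodes, and within the 2 clusters described below it was at 42.1 CPM in place of 114. Growth hormone (Gh) likewise had 669 of its 874 UMIs in 1 barcode. The other barcodes held 1191 Gh UMIs, with 3 barcodes at 100 or more and a highest of 334. Where these UMIs came from was not tested.

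Ribosomal protein and oxidative phosphorylation genes were counted next, beside the 13% of all genes that were at least 2-fold higher and the 39.8% that were lower. Of 89 cytosolic ribosomal protein genes listed, 72 had at least 100 UMIs, of which 59 were at least 2-fold higher and 4 (Rpl36, Rps10, Rps13 and Rps2) at least 2-fold lower, with a median log2 ratio of 1.57. They made 2.53% of UMIs against 1.10%, or 46960 against 14870 CPM. Of 76 nuclear genes for oxidative phosphorylation, 74 had at least 100 UMIs, of which 59 were at least 2-fold higher and 0 lower, with a median of 1.54. Both groups have many processed pseudogenes in the longer gene list, so single members such as Eef1a1 in the next list (36.5% of end windows shared) are uncertain. In the low-Malat1 barcodes of the cells the ribosomal protein genes were at 118900, 120800 and 145400 CPM, and the oxidative phosphorylation genes at 57670, 68540 and 61190 CPM. In the low-Malat1 barcodes of the nuclei the latter were at 64060 CPM. Since the 2 gene lists differ in pseudogenes, these sums are not compared between nuclei and cells.

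Of 14 abundant cytoplasmic genes, 13 had at least 100 UMIs and 8 were at least 2-fold higher (Actb, Eef1a1, Eef2, Fth1, Ftl1, Tmsb4x, Tpt1 and Ubb), with 0 lower and a median of 1.25. Among 8 heat shock genes, 6 had at least 100 UMIs and 4 were at least 2-fold higher, led by the chaperone Hsp90ab1, with a list sum of 2346 against 768 CPM. Among 7 genes of the endoplasmic reticulum and secretion, Canx and Sec61b were at least 2-fold higher, beside 13% of all genes, and the median was 0.48. Of 12 immediate-early genes, which respond within minutes to stress, 8 had at least 100 UMIs and 3 (Btg2, Dusp1 and Junb) were at least 2-fold lower, with a median of -0.84 against -0.59 over all genes, a share close to the 39.8% of all genes that were lower. Jund, whose share of the list was the largest at 50.5%, belonged to neither group.

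Genes were next sorted by a comparison that left out the low-Malat1 barcodes. In the other barcodes, 1506 genes were at least 4-fold higher in the nuclei than in each of the 3 captures of cells, and 379 at least 4-fold higher in each capture of cells than in the nuclei. In the low-Malat1 barcodes the nuclear-enriched genes took 5.91% of UMIs outside mitochondrial and rule genes, against 22.6% in the other barcodes and 1.89 to 2.16% in the low-Malat1 barcodes of the cells. The cell-enriched genes took 7.99%, against 2.47% and 21.8 to 23.7%. The other barcodes both chose these genes and stand in the ratio, so that these values are a description. Of the 379 cell-enriched genes, 160 had at least 100 UMIs in the low-Malat1 and other barcodes together. Some, such as Rps29 and Tpt1, share 17.1% and 19.7% of end windows with other entries of the longer gene list, against 0.0% in the shorter. The part of such counting differences, pseudogenes or introns, in the gap between nuclei and cells was not tested, so these shares are not compared between them.

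Across 10466 genes in both gene lists, the levels in the low-Malat1 barcodes had a Spearman correlation of 0.68 with the other barcodes of the same library and of 0.87, 0.89 and 0.89 with the low-Malat1 barcodes of the 3 captures of cells. With the other barcodes of the cells it was 0.83, 0.84 and 0.83. These are correlations across genes, which are not independent replicates, and the first 2 profiles share a library whereas the rest differ in suspension, depth and gene list. The median absolute log2 difference was 1.00 to the other barcodes of the nuclei and 0.39 to 0.47 to the low-Malat1 barcodes of the cells.

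The low-Malat1 barcodes held RNA of marginal and of intermediate cells. Barcodes were grouped by Leiden clustering, and clusters were named from marker lists where at least 3 markers and at least 50% of the list were raised 2-fold over all other clusters and found in 10% of the barcodes. The other barcodes held 2804 marginal-like, 1854 intermediate-like and 645 basal-like nuclei, which serve as references. Marker genes in them are described, not tested, since they named the clusters.

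Kcne1, the accessory subunit of the marginal potassium channel, was at 1310 CPM in the low-Malat1 barcodes (interval 1273 to 1347), 1243 CPM in marginal-like and 421 CPM in intermediate-like nuclei. Kcnj10, the intermediate potassium channel, was at 1528 CPM (1488 to 1568) in the low-Malat1 barcodes, 201 CPM in marginal-like and 1093 CPM in intermediate-like nuclei. These levels leave out mitochondrial UMIs, and the order of Kcne1 rested on that. Over all UMIs Kcne1 was at 705 CPM in the low-Malat1 barcodes against 967 CPM in marginal-like nuclei, and Kcnj10 at 822 CPM against 748 CPM in intermediate-like nuclei. Kcnj10 was detected in 66.3% of the low-Malat1 and 33.0% of the other barcodes, Kcne1 in 63.6% and 51.7%. In the low-Malat1 barcodes of the cells Kcnj10 was at 3042, 2189 and 2161 CPM and Kcne1 at 457, 808 and 522 CPM.

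Of the 11 marginal markers, all with at least 100 UMIs, 0 were at least 2-fold higher and 6, among them Atp13a5, Bsnd, Esrrb, Kcnq1 and Lrp2, at least 2-fold lower than in the other barcodes, with a median log2 ratio of -1.001, against 39.8% lower and a median of -0.59 over all genes. The list sum was 10420 CPM against 14080 CPM in the other barcodes, 22700 CPM in marginal-like and 6259 CPM in intermediate-like nuclei. Slc12a2, the sodium-potassium-chloride cotransporter, gave 48.9% of it, at 5091 against 4837 CPM in the other barcodes. Kcnq1, the pore of the channel that Kcne1 modulates, was far lower, at 199 against 1246 CPM (log2 -2.64), and the ATPase Atp13a5 was at 91.6 against 590 CPM. The endocytic receptor Lrp2 was at 1853 against 3708 CPM and Atp1b2, a sodium pump subunit, at 1380 against 1640 CPM.

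Of the 14 intermediate markers, 12 had at least 100 UMIs, 2 (Kcnj10 and Mlana) were at least 2-fold higher and 2 (Mitf and Tyr) at least 2-fold lower, with a median of 0.25 against -0.59 over all genes. The count of higher genes is near the background of 13% of all genes, and 39.8% of all genes were at least 2-fold lower. The list sum was 17860 CPM against 17020 CPM in the other barcodes, 49050 CPM in intermediate-like and 3085 CPM in marginal-like nuclei. Its log2 ratio to the other barcodes was 0.07 (0.06 to 0.08), but -0.39 with CPM over all UMIs and 0.46 with median-ratio scaling, so that its direction depended on the scale. Dct, an enzyme of melanin synthesis, gave 71.3% of the sum, at 12730 CPM against 11800 CPM, and was found in 98.0% of the low-Malat1 barcodes.

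The melanosome protein Mlana was at 787 against 252 CPM (log2 1.64) and the melanosome transporter Slc45a2 at 607 against 314 CPM. Tyrosinase (Tyr), the first enzyme of melanin synthesis, was at 463 against 1767 CPM, with 5723 CPM in intermediate-like nuclei, and Mitf, the master transcription factor of pigment cells, at 204 against 504 CPM. The pigment genes Pmel and Tyrp1 had 4 and 1 UMIs in the low-Malat1 and 5 and 3 in the other barcodes.

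**Figure D4:**
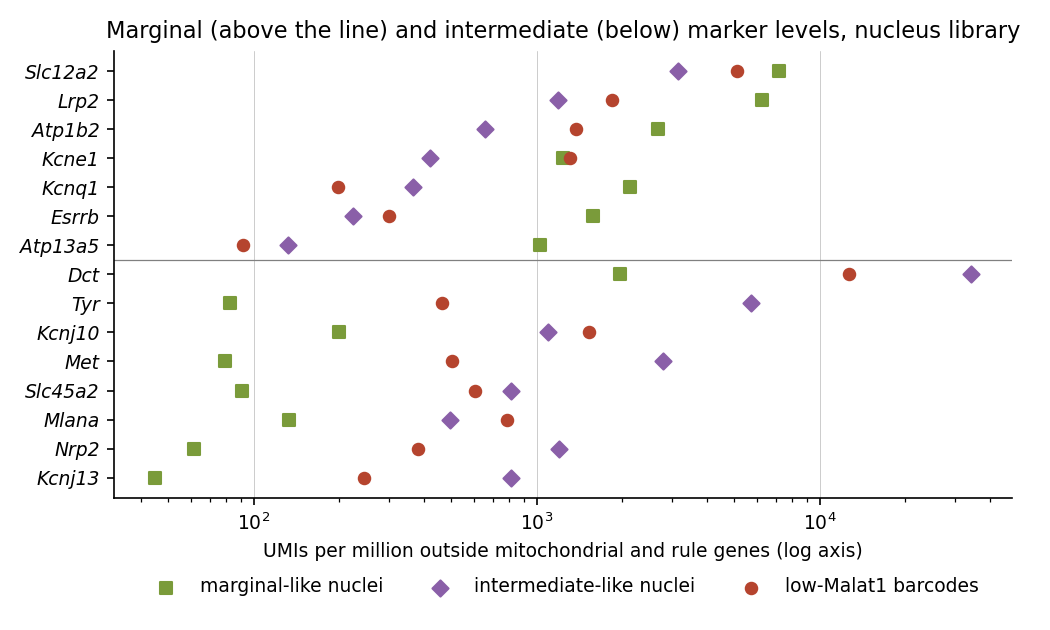
Level of 7 marginal and 8 intermediate marker genes (UMIs per 1000000 outside mitochondrial and rule genes, log axis) in the low-Malat1 barcodes and in marginal-like and intermediate-like nuclei of the same library. On this scale, Kcne1, Kcnj10 and Mlana lie at or above the nuclei they mark (over all UMIs Kcne1 lies below, at 705 against 967 CPM), Slc12a2 and Slc45a2 lie between the 2 references, and Kcnq1 and Atp13a5 lie below both.

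Both kinds of RNA were then counted in single barcodes. UMIs of both lists together had a median of 22 per low-Malat1 barcode, with 8 marginal and 13 intermediate UMIs. Among 3488 barcodes with at least 10 such UMIs, the intermediate list made a median of 65.2% (25th to 75th percentile, 52.4 to 76.2%). In marginal-like nuclei the median was 8.62% and in intermediate-like nuclei 92.7%. Values between 20% and 80% were found in 80.8% of the low-Malat1 barcodes, 16.8% of the marginal-like and 13.9% of the intermediate-like nuclei. At least 1 UMI of each list was found in 98.4% of the low-Malat1 barcodes, but also in 88.2% of the marginal-like and 97.2% of the intermediate-like nuclei.

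The spread among the low-Malat1 barcodes was wider than counting error alone, with a variance 5.18 times that of a binomial with 1 shared proportion. The reference nuclei also had such excess spread, at 4.70 times in marginal-like and 10.9 times in intermediate-like nuclei. Without Dct, the most abundant gene, the medians were 33.3% in 2503 low-Malat1 barcodes, 3.85% in marginal-like and 78.6% in intermediate-like nuclei. Values between 20% and 80% were then found in 77.0% of the low-Malat1 barcodes, 2.97% of the marginal-like and 52.9% of the intermediate-like nuclei, so that the gap to intermediate-like nuclei was smaller without Dct.

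**Figure D5:**
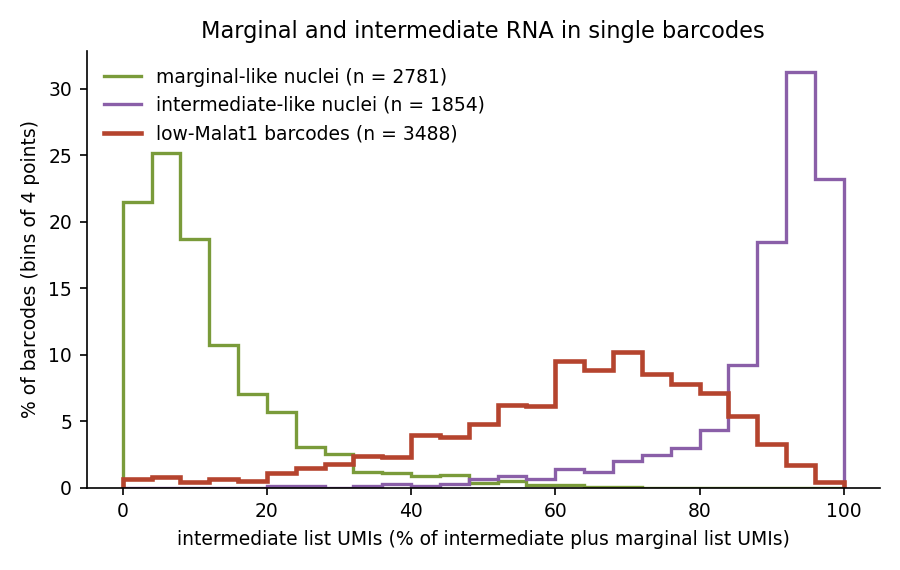
Intermediate marker UMIs as a percent of intermediate plus marginal marker UMIs in single barcodes of the nucleus library with at least 10 such UMIs, as the percent of barcodes per bin. Marginal-like nuclei peak near 0 (median 8.62%), intermediate-like nuclei near 100 (92.7%), and low-Malat1 barcodes form 1 broad hump between them (65.2%).

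Free RNA in the suspension can give UMIs in every droplet, and red blood cells should hold no strial RNA of their own. Of the 647 barcodes with 5% or more hemoglobin, 527 were in erythroid-like clusters and 120 in others, so only the former are used here. They had a median of 5322 UMIs, of which 4 were marginal, 3 intermediate and 39 mitochondrial, against 8, 13 and 749 in the low-Malat1 barcodes at 1541 UMIs. Kcnj10 was found in 24.1% of them and in 66.3% of the low-Malat1 barcodes, Kcne1 in 39.5% and 63.6%, and Dct in 83.7% and 98.0%. At least 1 UMI of each list was found in 91.6% of them. Of the 178 with at least 10 UMIs of both lists together, 61.2% had an intermediate share between 20% and 80%, with a median of 50.0%. The low-Malat1 barcodes had 80.8% and 65.2%. Without Dct the values were 40.6% and 13.1% in 106 of them, against 77.0% and 33.3% in the low-Malat1 barcodes. The part of free RNA in the mixed marker signal of the low-Malat1 barcodes was not tested.

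The mt- genes, the rule genes and the listed nuclear noncoding RNAs were left out of the genes used for clustering. Each barcode was first scaled by its UMIs over all genes, however, so its mitochondrial share also scaled the genes that stayed. The pseudogene Gm28438, which shares most of its end windows with mt-Nd3, stayed in the clustering. It was the first of the leading genes of the smaller cluster described here, at 7371 CPM against 3756 CPM in the larger. Mitochondrial reads may therefore still have entered through this gene too, and the part of either in the clusters was not tested. Of 18 clusters, 2 held 3622 of the 3838 low-Malat1 barcodes (94.4%) and only 16 of the other barcodes. Neither could be named, since no marker list met the naming rule in them. For that rule levels were taken over all UMIs, mitochondrial ones included, which lowers every marker level in these clusters. Each was also compared with a rest that held the other, so the lack of a name says little about their cell type. The larger, with 1953 low-Malat1 barcodes, had a median of 1734 UMIs and 41.5% mitochondrial RNA, and the smaller, with 1669, had 1340 UMIs and 57.9%. Outside mitochondrial genes these medians left 1011 and 570 UMIs.

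The 2 clusters differed in depth and in the weight of marginal RNA. The intermediate list was at 20350 and 20400 CPM, while the marginal list was at 9610 CPM in the larger and 15540 CPM in the smaller, with Lrp2 at 1486 and 3184 CPM. Fth1 was at 30580 and 23540 CPM and ribosomal protein genes at 41030 and 32560 CPM. The values chose the clusters and carry no test. Split into 4 groups of equal size by mitochondrial share instead, the low-Malat1 barcodes went from 8401 to 14510 CPM of the marginal list and from 978 to 2019 CPM of Kcne1, from the lowest (under 38.0%) to the highest group (over 57.4%). Dct was at 8532 CPM in the lowest group and between 15470 and 16320 CPM in the other 3. The groups differed in make-up, since 798 of the 960 barcodes of the lowest group belonged to the 2 clusters and 932 to 953 in the others, and Dct was at 14540 and 14600 CPM in the 2 clusters. Within the highest group the median number of UMIs outside mitochondrial genes was 494.5, against 1262 in the lowest.

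The 216 low-Malat1 barcodes outside these 2 clusters were spread over the other clusters. B lineage-like clusters held 49, basal-like 31, fibrocyte-like 30, Reissner's membrane-like 21, marginal-like 12 and intermediate-like 9, and no named cluster reached 50, so that levels were not compared within a cell type. An unnamed cluster led by Elane, Plac8, Ly6c2 and Mpo, genes of myeloid precursors, held 36. The median mitochondrial share of the 216 was 21.4%, against 49.0% in the 2 clusters, and it was 45.9% in the 31 of the basal-like, 38.1% in the 21 of the Reissner's membrane-like and 24.4% in the 30 of the fibrocyte-like cluster. The 68 in B lineage-like, erythroid-like and neutrophil-like clusters had 3.43%. The 2 clusters also held 104 of the 172 low-Malat1 barcodes under 5%.

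Other marker lists were measured in the same way, and not every list is reported here. Of 5 basal markers, 4 had at least 100 UMIs and 2 (Nr2f2 and Tjp1) were at least 2-fold lower, which over so few genes is near the 39.8% of all genes, and the list sum was 409 CPM, close to the 348 CPM in marginal-like nuclei and below the 1946 CPM in basal-like nuclei. Cldn11, its most abundant gene, was at 185 against 313 CPM. The 6 spindle and root cell markers summed to 134 against 263 CPM, with 4 at least 2-fold lower. The fibrocyte list summed to 652 against 313 CPM, of which Otos made 77.6%, but in the 2 clusters it was at 161 CPM, below the other barcodes. Endothelial markers summed to 22.8 against 48.2 CPM, pericyte markers to 4.95 against 16.5 CPM and hair cell markers to 0.55 against 2.77 CPM. In the low-Malat1 barcodes Cdh5 (endothelial), Abcc9 and Kcnj8 (pericyte) and Myo7a and Pou4f3 (hair cell) were at 0 UMIs. Macrophage markers were at 325 against 236 CPM in the other barcodes, 89.7% of it Lyz2, and at 45.1 CPM within the 2 clusters. B lineage markers were at 218 against 336 CPM and at 14.2 CPM within the 2 clusters, and neutrophil markers at 836 against 801 CPM and at 297 CPM. The neutrophil level was bounded by the rule, which left barcodes with granule genes at 0.5% or more out of both classes. The direction of these 3 lists against the other barcodes turned with the Malat1 limit, as the log2 ratios at limits of 0.75% and 3% were -0.40 and 2.09 for macrophage, -2.11 and 0.24 for B lineage and -0.68 and 1.45 for neutrophil markers.

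Fewer genes were seen per low-Malat1 barcode, with a median of 548.5 against 829 in the other barcodes. With every barcode thinned to 500 UMIs the medians were 216 and 330. When mitochondrial UMIs were left out before thinning, the order turned, with 378 genes in 3123 low-Malat1 barcodes deep enough and 352 in 6147 other barcodes. Thinned in that way, the low-Malat1 barcodes of the cells gave 357, 361 and 357 genes and their other barcodes 354, 352 and 353.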

How the data were processed

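The deposited values are raw UMI counts per gene and barcode, which the authors made from 10x Chromium reads with Cell Ranger 2.0.0 on mm10, per the labels and the study's methods, as filtered barcodes of 4 libraries. No other file columns were used. Levels are CPM over UMIs outside mitochondrial and rule genes, summed over barcodes, with a floor of 3 counts for genes at 0. Only the naming of clusters used CPM over all UMIs, apart from values stated as such. Genes were named by rule: the 13 mitochondrial protein genes, the marginal, intermediate, basal and nuclear noncoding lists, and the 10 highest and 10 lowest ratios among genes with at least 100 UMIs and 100 CPM, without identifier-type names. Clusters came from scanpy 1.11.5 (2000 variable genes, 35 components, 20 neighbours, Leiden resolution 0.8). Doublets stayed in, with the 978 highest scores of Scrublet removed in an alternative. Members and lists were chosen with earlier results of these data known, and the thresholds for naming clusters after the clusters were seen; a cluster with more genes of another list among its 10 leading genes stayed unnamed. With 1 nucleus library, no p-value was computed. Some genes of the lists are not reported here.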

Additional observations from a re-analysis of the deposited data

Results flagged for a closer look

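The intermediate list had a log2 ratio of 0.07 between low-Malat1 and other barcodes in the nuclei, and of -0.47, -0.72 and -0.76 in the 3 captures of cells, so that every capture of cells went the other way. Its sign in the nuclei rested on the scale and on the Malat1 limit, as it was -0.39 with CPM over all UMIs and -0.089 at a Malat1 limit of 3%. The list of endoplasmic reticulum and secretion genes had 0.67 in the nuclei and -0.07, -0.09 and -0.19 in the cells. These differences between the suspensions were not tested, since there was 1 nucleus library. The part of the cell type make-up of the other barcodes in them was not tested either.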

How the results depend on the processing

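The high mitochondrial share, the low share of nuclear noncoding RNA and the high share of ribosomal protein genes in low-Malat1 barcodes kept their direction against the other barcodes in every alternative run, whereas the levels of the marker lists against the other barcodes depended on the scale. With CPM over all UMIs the log2 ratios of the marginal, intermediate and basal lists were -0.89, -0.39 and -0.92, and 634 genes were at least 2-fold higher. With median-ratio scaling the ratios were -0.041, 0.46 and -0.062, and 2207 genes were higher. Without a minimum on UMIs 2296 genes were higher and 7692 lower, with a minimum of 500 UMIs 2009 were lower, and at a fold of 4 there were 53 higher and 2016 lower. A minimum of 500 genes left 2294 low-Malat1 barcodes, with 38.98% mitochondrial RNA, 0.0193% nuclear noncoding RNA, 3.01% ribosomal protein genes and log2 ratios of -0.56 (marginal) and 0.004 (intermediate). A Malat1 limit of 0.75% gave 46.5%, 0.0161%, 2.37%, -0.38 and 0.17 in the same order, and a limit of 3% gave 42.9%, 0.0262%, 2.60%, -0.36 and -0.089, so that the intermediate ratio turned. A hemoglobin limit of 1% gave 45.3% mitochondrial and 2.48% ribosomal RNA, and removal of the highest doublet scores 45.5% and 2.51% with ratios of -0.46 (marginal) and 0.15 (intermediate). With only the low-Malat1 barcodes of the 2 clusters, an alternative chosen after seeing the data, the values were 48.7%, 0.0151%, 1.93%, -0.29, 0.26 and, for the basal list, -0.33, and the fibrocyte list turned from 1.06 to -0.96. The median mitochondrial share over barcodes was 50.2%. Over UMIs outside mitochondrial and rule genes the noncoding share was 0.0338% and the ribosomal share 4.70%. Thinning left 216 genes per barcode. The cause of these shifts was not tested.

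Without 1 capture of cells at a time, the share of low-Malat1 barcodes in the cells ranged from 55.5% to 59.7% and their mean mitochondrial share from 50.1% to 56.5%. Clustering with other settings put 94.3% to 94.5% of the low-Malat1 barcodes in clusters of their own. No paired analysis was possible because nuclei and cells came from separate suspensions and share only 1 replicate number. The single nucleus library limits every contrast to these pooled mice, since its spread between captures is unknown.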
